A study of Mus musculus with 58 samples.

Results

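The neuronal immediate early genes described here are *Fos*, *Fosb*, *Junb*, *Egr1*, *Egr2*, *Egr4*, *Arc*, *Npas4*, *Nr4a1* and *Dusp1*, which were taken by symbol from the 2 regional tables, 1 for the primary visual cortex (PVC) and 1 for the entorhinal cortex (EC). All 10 were listed in both tables, among 31246 genes. The tissue came from male *APOE* targeted replacement mice of the C57Bl/6 strain, aged 14 to 15 months, in which human *APOE* is expressed from the mouse promoter. There were 10 *APOE3/3* mice, homozygous for the ε3 allele, and 19 *APOE3/4* mice, which carry 1 copy each of ε3 and ε4. No mouse with only mouse *Apoe* was included. The paper states that the mice of its whole study came from separate colonies, without a colony for each animal. Each of the 29 mouse numbers was used for 1 EC and 1 PVC library, 58 libraries in all, so that the same numbers occurred in both regions.

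Immediate early genes are transcribed within minutes of neuronal firing, without the need for new protein synthesis. Calcium entry through synaptic receptors and channels activates kinases, which act on factors such as CREB and SRF that are already bound near these genes. Most of the products are transcription factors that switch on later genes, while others, such as Arc, act directly at the synapse. Their RNAs are short-lived, and in cortex they are widely used as a marker of recently active neurons.

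The only expression value used was the authors' mean normalized count, which is 1 value per gene and region over the mice of both genotypes. It is not a value of a single mouse or of 1 genotype and carries no spread between mice, so no difference between the regions was tested. The authors' own comparison of the genotypes, deposited in the same tables, was not used here. The tables were normalized separately, and the EC means added up to 49385488 and the PVC means to 27058393, an EC over PVC ratio of 1.83. Levels were therefore rescaled to a sum of 1000000 over the genes of each table, in counts per 1000000 (CPM) of these means, before the regions were set side by side. Without this step every PVC over EC log2 ratio was 0.87 lower, so that any PVC excess of less than 1.83-fold turned in direction. Levels of single genes were set against each other after division by exon length, in CPM per kilobase of exon. No division by length was made for sums in CPM, for the share of *Egr1* and *Arc* in them, or for naming the most abundant genes.

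All 10 immediate early genes had a higher level in the PVC than in the EC after rescaling, although *Egr4* turned without it. For 9 of them the PVC level was at least 1.5-fold higher, against 5.01% of the 15642 genes whose mean count was 10 or more in both tables. None was 1.5-fold higher in the EC, against 7.17% of those genes. The median PVC over EC log2 ratio of the 10 genes was 1.43, against −0.02 over all genes with that minimum. Their summed level was 480 CPM in the EC against 1580 in the PVC, a 3.29-fold difference. The order of the ratios, from the largest, was *Arc*, *Egr2*, *Fos*, *Egr1*, *Nr4a1*, *Npas4*, *Dusp1*, *Junb*, *Fosb* and *Egr4*. As bulk tissue was measured, the number of cells holding these RNAs and the RNA per cell cannot be told apart. Neuronal activity was not measured, and no cause of the regional difference was tested.

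**Figure D1:**
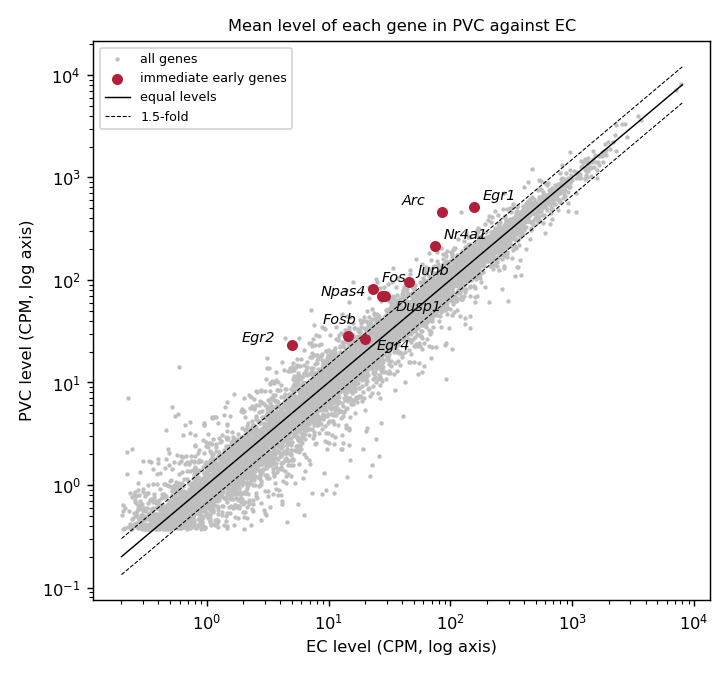
Mean level of each gene in the PVC (vertical) against the EC (horizontal), both in CPM on log axes, for the 15642 genes whose mean count was 10 or more in both tables. The 10 immediate early genes (red) lie above the line of equal levels, and 9 of them above the upper dashed line of 1.5-fold, the exception being *Egr4*, which turns without rescaling.

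The promoters of the genes were searched for the short sites to which activity-dependent factors are known to bind. RefSeq windows of GRCm38.p6, from 250 bases before to 50 bases after a start site, were found for 8 of the 10 genes, the table of windows used here holding none for *Arc* and *Egr1*. GRCm38.p6 is not the assembly of the expression tables, so its coordinates are kept apart from those of the gene spans. The cAMP response element (CRE) is TGACGTCA, and its core TGACG is contained in it, so every CRE counts as a core too. Exact matches on either strand were counted. The core was found in 8 of 8 genes, against 23% of the 27025 genes with a window. A gene was counted if any of its windows held the core, and in *Egr2* 3 of 5 windows did. The GC content of the members' windows was high, from 58.4% to 74.4% in the 250 bases before the start, against a median of 52.4%. Of the 10574 windows with at least 58.4%, 31% held the core, which is a share of windows and not of genes. That floor is the value of *Fos*, the lowest of the members, so the set was not matched to the higher GC content of the others. The full CRE was found in 1 member, *Dusp1*, and in 2.03% of all genes.

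The positions of the cores differed between genes, counted from the start site. *Nr4a1* had 4, with the first base 233, 213, 69 and 40 bases before the start, and *Fos*, *Egr2*, *Egr4* and *Npas4* had 2 each. *Dusp1* had cores at 2 places, of which 1 is the CRE, a palindrome that matches the core on both strands. In *Fos* the nearer core began 66 bases and the TATA box, TATAAA, 33 bases before the start. A CArG box, the site in serum response elements that SRF binds, was found in *Egr2* alone, in 4 of its 5 windows, and in 1.81% of all genes. TATAAA was found in *Fos* and *Junb* and in 15.7% of all genes, but the match in *Junb* begins at the start site itself, and in the 150 bases before the start only 1 gene, *Fos*, held it. The AP-1 site TGANTCA and the EGR site GCGTGGGCG were found in 0 of 8 members, and in 8.97% and 0.707% of all genes. A match is a description of the sequence, and no match says only that these letters are not in the window.

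The 250 bases before the start are shown, 5′ to 3′ on the strand of the gene, for the gene with the largest and the gene with the smallest PVC over EC ratio among those with a window (*Egr2* and *Egr4*), for *Dusp1* with its full CRE, and for *Npas4* and *Fos* with 2 cores each. For *Egr2*, which has 5 start sites, the window with the most matches was taken. Capitals mark the CRE or its core on either strand, the CArG box and TATAAA. The regions are chr10:67537619-67537868 on the plus strand for *Egr2*, chr6:85513590-85513839 on the minus strand for *Egr4*, chr17:26508473-26508722 on the minus strand for *Dusp1*, chr19:4989972-4990221 on the minus strand for *Npas4* and chr12:85473640-85473889 on the plus strand for *Fos*.
Egr2: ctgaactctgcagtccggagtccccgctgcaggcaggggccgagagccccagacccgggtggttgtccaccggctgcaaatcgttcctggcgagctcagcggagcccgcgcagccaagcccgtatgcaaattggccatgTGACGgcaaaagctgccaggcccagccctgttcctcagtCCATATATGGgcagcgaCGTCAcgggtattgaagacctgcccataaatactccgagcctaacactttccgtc
Egr4: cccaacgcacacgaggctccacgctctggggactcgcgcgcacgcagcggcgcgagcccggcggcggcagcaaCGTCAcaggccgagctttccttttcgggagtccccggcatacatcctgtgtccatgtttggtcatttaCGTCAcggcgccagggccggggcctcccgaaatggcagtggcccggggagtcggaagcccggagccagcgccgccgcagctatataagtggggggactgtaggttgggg
Dusp1: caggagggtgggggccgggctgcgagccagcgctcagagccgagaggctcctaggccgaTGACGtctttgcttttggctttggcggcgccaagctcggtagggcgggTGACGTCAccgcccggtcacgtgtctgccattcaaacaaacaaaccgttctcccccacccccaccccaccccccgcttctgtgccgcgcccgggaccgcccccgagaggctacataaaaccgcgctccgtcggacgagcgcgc
Npas4: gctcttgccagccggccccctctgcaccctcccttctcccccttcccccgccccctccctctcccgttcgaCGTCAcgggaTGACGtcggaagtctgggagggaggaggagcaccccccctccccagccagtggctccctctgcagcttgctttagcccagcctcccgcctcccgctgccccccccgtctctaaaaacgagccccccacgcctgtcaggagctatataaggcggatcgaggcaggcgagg
Fos: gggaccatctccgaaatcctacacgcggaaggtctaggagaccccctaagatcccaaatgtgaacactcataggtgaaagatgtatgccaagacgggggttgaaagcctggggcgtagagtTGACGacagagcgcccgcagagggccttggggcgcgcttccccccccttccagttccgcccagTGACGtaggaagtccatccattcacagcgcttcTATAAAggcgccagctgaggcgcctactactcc

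In these sequences *Npas4* carries its 2 cores 179 and 169 bases before the start, and in *Egr2* the CArG box lies between the 2 cores. *Egr4* also has 2 cores. A relation of the cores to the regional ratios was not tested.

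**Figure D2:**
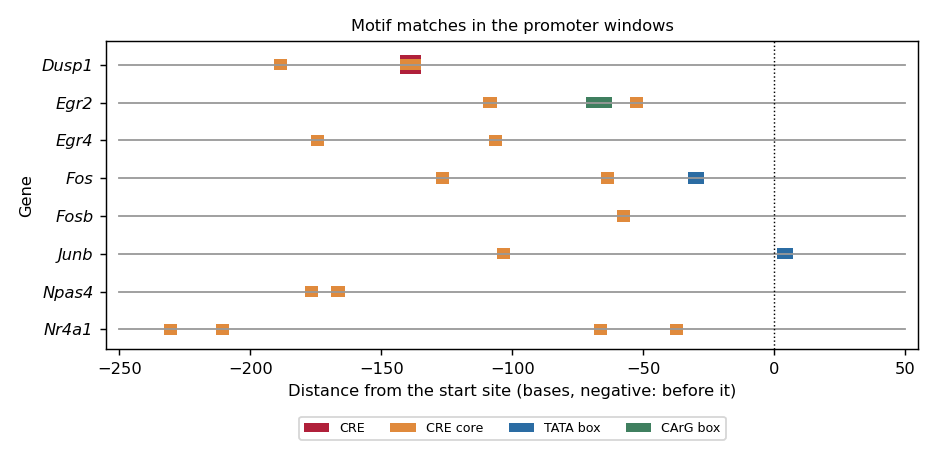
Matches to the CRE, its core, TATAAA and the CArG box in the promoter windows of the 8 genes with a window in the RefSeq table used, by distance in bases from the start site (negative values lie before it). Each gene has at least 1 CRE core, *Dusp1* has the full CRE, and *Egr2* the CArG box.

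The Fos and Jun proteins pair through leucine zippers to form the AP-1 transcription factor. *Fos* had an authors' mean of 1136 normalized counts in the EC, and of 2190 in the PVC, which is 9.78 and 34.4 CPM per kilobase. Its PVC level was 3.52-fold higher. Only 61 of the 15642 genes had a larger PVC over EC ratio. *Fosb*, which also encodes the long-lived truncated product ΔFosB, had means of 708 and 764 normalized counts and a 1.97-fold higher PVC level in CPM. *Junb* had means of 2242 and 2576 and a 2.10-fold higher level. Within the family the difference was uneven: *Fos* stood at 2.56 times the per-length level of *Fosb* in the EC and at 4.57 times that level in the PVC. This kind of ratio is taken within a table and does not depend on how the tables are scaled.

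The EGR proteins are zinc finger factors that bind GC-rich sites. *Egr1*, also known as Zif268 and needed for lasting memory in rodents, had authors' means of 7724 (EC) and 13937 (PVC) normalized counts, a 3.29-fold higher PVC level in CPM. It had the highest level in CPM per kilobase of the 10 genes in both regions, at 50.5 in the EC and 166 in the PVC. *Egr2*, best known from hindbrain and Schwann cell development, had the lowest level in both, at 1.49 and 6.79. Its authors' means were 249 and 624 normalized counts, and its PVC level in CPM was 4.57-fold higher. That ratio was exceeded by 26 of the 15642 genes and was the largest among the genes with a promoter printed. *Egr4* was the member with the smallest difference. Its authors' means were 992 and 713 normalized counts, the only pair with the lower value in the PVC before rescaling, and its level in CPM was 1.31-fold higher in the PVC. *Egr1* stood at 5.37 times the per-length level of *Egr4* in the EC and at 13.5 times that level in the PVC.

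*Npas4* is a neuron-restricted factor that responds to calcium entry and shapes inhibitory synapses. Its authors' means were 1355 normalized counts in the EC and 1878 in the PVC, and the PVC level in CPM was 2.53-fold higher. *Nr4a1* encodes the orphan nuclear receptor Nur77. Its means were 3665 and 5755 normalized counts, and its PVC level in CPM was 2.87-fold higher.

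*Arc* and *Dusp1* are the members that do not encode transcription factors. The *Arc* protein drives the removal of AMPA receptors from synapses, and its RNA travels into dendrites. *Arc* had the largest difference of the 10 genes, with authors' means of 4192 (EC) and 12435 (PVC) normalized counts, or 84.9 and 460 CPM, and a 5.41-fold higher PVC level. A larger ratio was found for 17 of the 15642 genes with a mean count of 10 or more in both tables. *Dusp1* encodes a nuclear phosphatase that switches off MAP kinases, and its means were 1433 and 1872, with a 2.38-fold higher PVC level in CPM. *Arc* stood at 0.55 times the per-length level of *Egr1* in the EC and at 0.905 times in the PVC.

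**Figure D3:**
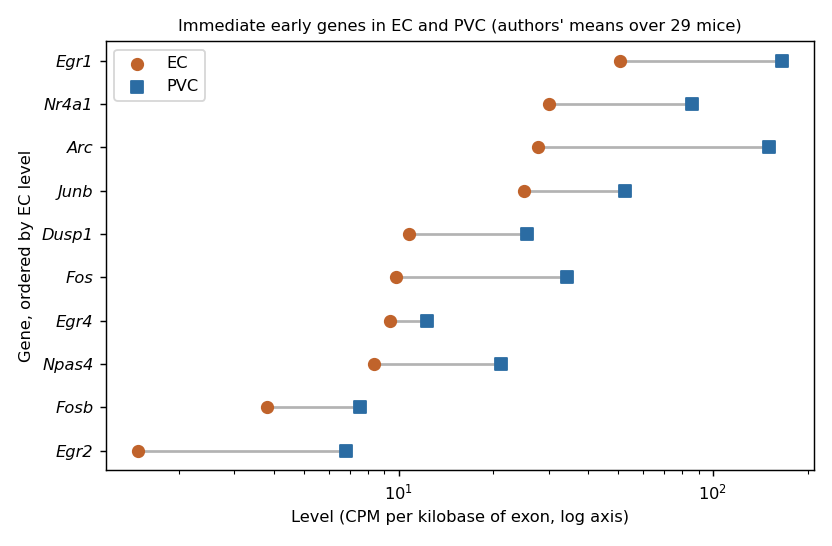
Level in CPM per kilobase of exon (log axis) of each immediate early gene in the EC (circles) and the PVC (squares), ordered by the EC level, from the authors' means over 29 mice per region. Every square lies to the right of its circle, and the gap is widest for *Arc* and narrowest for *Egr4*.

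The level in CPM per kilobase ran from *Egr2* to *Egr1* in both regions, and the highest was 24.5-fold the lowest in the PVC. In the EC the order, from the highest, was *Egr1*, *Nr4a1*, *Arc*, *Junb*, *Dusp1*, *Fos*, *Egr4*, *Npas4*, *Fosb* and *Egr2*. In the PVC *Arc* was in place 2 and *Nr4a1* in place 3, *Fos* came before *Dusp1*, and *Npas4* came before *Egr4*. Without values of single mice it cannot be said which neighbours in these orders differ beyond their spread. Among the 15098 genes with a length and with a mean of 10 or more in both tables, *Egr1* ranked 990 in the EC and 183 in the PVC, and *Arc* ranked 2018 and 212. *Nr4a1* ranked 1844 and 449, and *Fos* ranked 5655 and 1593. *Egr2* ranked 11802 and 7185. *Egr4* ranked 5827 and 4681. These ranks are also unaffected by the scaling of the tables. Together *Egr1* and *Arc* made up 50.3% of the summed level in CPM of the 10 genes in the EC, and 61.7% of it in the PVC.

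Members of the same families that are not among the 10 genes did not all have the same pattern. Of the summed per-length level of the 3 NR4A receptors, *Nr4a1* made up 47.1% in the EC and 82.5% in the PVC, while *Nr4a2* made up 41.1% and 11.4%. *Nr4a2* was 2.19-fold higher in the EC and is also on the list of entorhinal markers used here. In the AP-1 family *Fos* made up 10.4% in the EC and 24.6% in the PVC, *Junb* 26.7% and 37.7%, and *Jun* 24.9% and 10.6%. *Jun*, the founding partner of Fos, was 1.58-fold higher in the EC, and *Jund*, which is expressed steadily, was at 66.8 and 60.8 CPM. In the EGR family *Egr1* made up 56.2% and 68.3%, *Egr3* 31.6% and 23.9%, and *Egr4* 10.5% and 5.07%. The summed per-length level was 2.71-fold higher in the PVC for the EGR family, 1.64-fold for NR4A and 1.49-fold for AP-1.

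**Figure D4:**
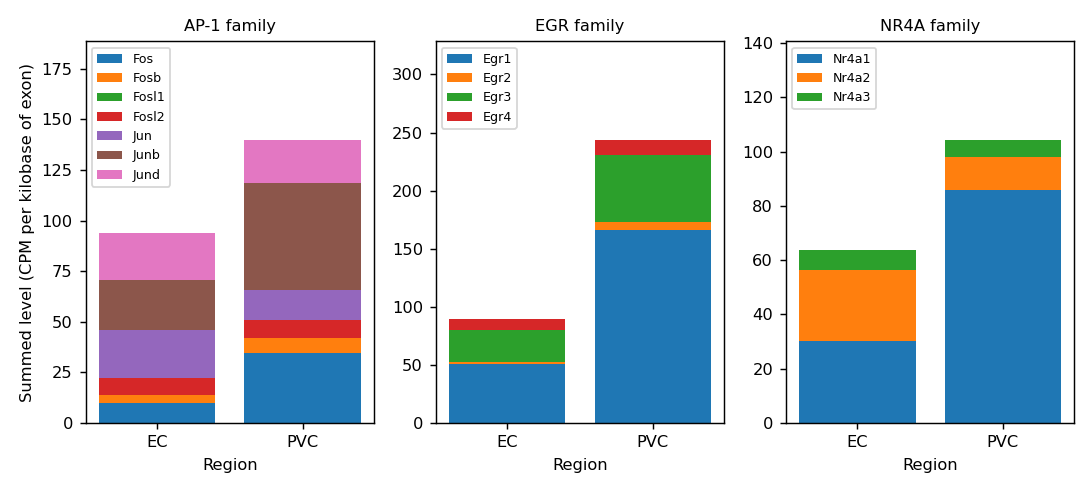
Summed level in CPM per kilobase of exon of the AP-1, EGR and NR4A families in the EC and the PVC, with each gene as a segment of the bar. *Egr1* and *Nr4a1* take a larger part of their family's bar in the PVC than in the EC, and *Jun* and *Nr4a2* have a smaller segment there than in the EC.

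Of 27 other rapid response genes, the remaining members of these families included, 26 passed the minimum count, the exception being *Fosl1*. Of the 26, 8 were at least 1.5-fold higher in the PVC and 2 in the EC, and their median log2 ratio was 0.23. Over all genes with the minimum count, 5.01% passed toward the PVC and 7.17% toward the EC, so the EC count is near that share. The same shares are the background for the counts of all lists that follow. The largest PVC over EC ratios were those of *Ier5* (3.12-fold), *Ier2* (2.87-fold), *Trib1* (2.41-fold) and *Btg2* (2.40-fold). The 2 genes higher in the EC were *Jun* and *Nr4a2*. *Nr4a3* and *Fosl2* had log2 ratios of −0.27 and 0.07. Genes induced later by activity, among them growth factors and synaptic proteins, had a median log2 ratio of 0.57, with 8 of 16 at least 1.5-fold higher in the PVC and 0 in the EC. *Inhba*, a subunit of activin, was 2.25-fold higher in the PVC, and *Ptgs2*, the inducible cyclooxygenase, was 2.16-fold higher. *Nefm*, a neurofilament gene, was 2.15-fold higher there and *Scg2*, which encodes a secretory granule protein, 1.93-fold. *Vgf*, *Plk2* and *Rheb* had log2 ratios of 0.08, 0.06 and 0.03. Of 8 MAP kinase phosphatases other than *Dusp1*, 4 were at least 1.5-fold higher in the PVC, with *Dusp6* at 1.96-fold and *Dusp5* at 1.79-fold, and 0 in the EC.

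The factors and kinases that act upstream had ratios near the median of all genes. Of 16 activity-dependent transcription factors and coactivators, 0 passed 1.5-fold in either direction, and their median log2 ratio was 0.03. *Creb1* was at 63.1 CPM in the EC and 63.7 in the PVC, and *Srf* at 58.3 and 63.7. *Mef2c* had the largest ratio of this list, 1.36-fold. Of 13 kinases that signal to the nucleus, 1 passed 1.5-fold in each direction, near the shares of all genes (5.01% and 7.17%). *Camkk2* was 1.51-fold higher in the PVC and *Mapk3*, which encodes ERK1, 1.79-fold higher in the EC. The median log2 ratio of the kinases was 0.02. These are RNA levels, and the activity of the factors and kinases was not measured.

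**Figure D5:**
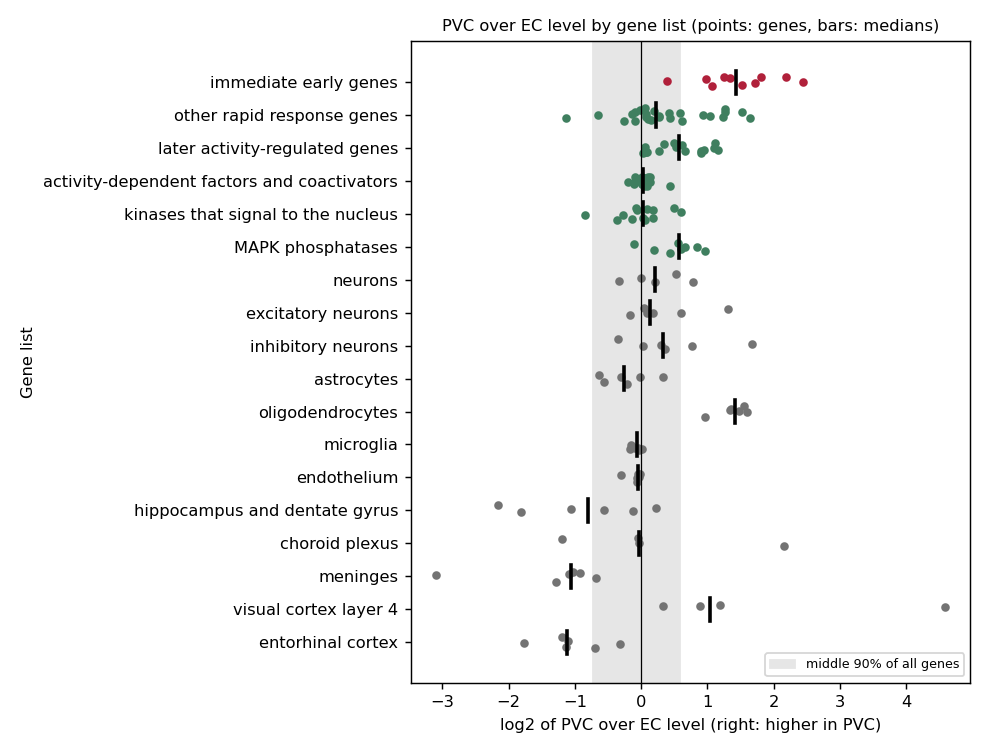
Log2 of the PVC over the EC level for the genes of each list whose mean count was 10 or more in both tables (points; immediate early genes in red, other lists of the activity response in green, markers in grey) with the list medians (bars); points to the right are higher in the PVC, and the shaded band holds the middle 90% of all genes. The immediate early genes have a median of 1.43, the oligodendrocyte markers 1.42 and the activity-dependent factors 0.03.

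The labelled tissue was checked against marker genes. Neuronal markers were abundant, with *Snap25* at 2279 CPM in the EC and 3277 in the PVC, and *Camk2a*, a kinase of excitatory neurons, at 3496 and 3947. *Rbfox3* was not matched. The summed level of the 5 neuronal markers matched was 1.17-fold higher in the PVC, that of the 6 excitatory markers 1.08-fold, and that of the 6 inhibitory markers 1.14-fold. Of 4 genes of visual cortex layer 4, 3 were at least 1.5-fold higher in the PVC, with *Cux2*, the most abundant of them, 1.84-fold and *Rorb* 2.29-fold higher. Of 6 entorhinal markers, 5 were at least 1.5-fold higher in the EC, with *Reln* 3.40-fold higher. All 6 oligodendrocyte markers were at least 1.5-fold higher in the PVC, with a median log2 ratio of 1.42, and their summed level was 918 CPM in the EC and 2331 in the PVC. *Mbp*, which encodes a major myelin protein, was 2.54-fold higher there. All 6 meningeal markers were at least 1.5-fold higher in the EC, with summed levels of 256 and 93.0 CPM, and the 2 most abundant, *Igf2* and *Dcn*, were 1.90-fold and 8.54-fold higher there. Of the 6 markers of hippocampus and dentate gyrus that passed the minimum count, out of 8, 3 were at least 1.5-fold higher in the EC, and the summed level of all 8 was 348 and 159 CPM. Astrocyte markers summed to 4928 and 4629 CPM, microglial markers to 252 and 233, and endothelial markers to 181 and 173. Choroid plexus markers summed to 9.45 and 19.6 CPM, of which *Ttr* gave 3.14 and 14.0. No marker matched was at 0 in either table. The part of these cell types in the levels of the immediate early genes was not tested. Setting the sum of the neuronal and excitatory markers equal between the tables shifted every log2 ratio by the same −0.17. The median of the 10 genes was then 1.26, and 9 of them were at least 1.5-fold higher in the PVC. A shift shared by all genes cannot test the part of neuron content.

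The immediate early genes are compact. In the GENCODE annotation of NCBIM37, the assembly also called mm9 to which the authors aligned, the genes spanned from 1807 bases for *Junb* to 7947 bases for *Nr4a1*, with a median of 3633. The median over 14222 protein-coding genes with a mean of 10 or more in both tables was 24568 bases, and 19.8% of those genes spanned no more than *Nr4a1*. Exon lengths ran from 1807 bases to 3751 bases for *Fosb*, all under the median of 3764 for coding genes. *Junb* has a single exon, *Egr1*, *Egr2* and *Egr4* have 2 exons in their longest transcript, and *Npas4* has the most, 8, equal to the median of coding genes. *Arc* lies on the minus strand of chromosome 15 from 74499513 to 74503000, and *Nr4a1* on the plus strand of the same chromosome from 101097277 to 101105223. The other 8 genes lie on a chromosome each, with *Fos* on chromosome 12 from 86814840 to 86818223, *Egr2* on chromosome 10 from 66998223 to 67004936, and *Egr4* on chromosome 6 from 85461125 to 85463583.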

How the data were processed

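RNA-sequencing was performed by the authors on the EC and PVC of 29 mice, with TopHat2 2.0.6, Bowtie2 2.0.2.0, HTSeq and DESeq2 1.10.1 named in the submitters' processing notes, and mm9 (NCBIM37) as the genome. The authors deposited 1 table per region. The signal used here was made by the authors, who deposited the average of each gene's size-factor-normalized counts across the libraries of both genotypes. The other columns hold the authors' own comparison of the genotypes (log2 fold change, standard error, statistic and *p*-values) and were not used, so no genotype difference is reported. The mean carries neither the depth per library nor the spread between mice, so no interval is given and the regions could not be tested against each other.

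Means were rescaled to 1000000 over all genes of a table. For comparisons between single genes and within families they were also divided by the exon length in GENCODE M1 (NCBIM37). A length was found for 81.2% of genes listed and 96.5% of those with a mean of at least 10 in both tables. A 1.5-fold difference was the size named. The library preparation does not mark strand, so reads of overlapping antisense genes cannot be told apart. Of the list genes, 1 was matched by an older symbol (*Map2*). Named genes were all 10 members, at most 4 per direction past 1.5-fold and 3 others of each activity list, and up to 3 of the most abundant genes of a marker list. The AP-1, EGR and NR4A families were singled out after the values were seen. The members and lists were chosen with earlier results of these data known. Python 3.11.15, numpy 2.4.6, pandas 2.3.3 and matplotlib 3.10.9 were used, and the procedures were tested on simulated data. Protein sequences were not analysed here.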

Additional observations from a re-analysis of the deposited data

How the results depend on the processing

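The number of the 10 genes at least 1.5-fold higher in the PVC stayed at 9 when the median gene ratio was set to 1, when the 100 most abundant genes were left out of the sum and when neuronal markers were set equal. At 2-fold it was 8, and the share of all genes at that size was not counted. Of the 15642 genes, 272 had a larger ratio than *Junb*, at 2.10-fold, and 329 a larger ratio than *Fosb*, at 1.97-fold. Without rescaling 5 of the 10 genes were at least 1.5-fold higher in the PVC, and every log2 ratio was 0.87 lower. The median over all genes was then −0.89, and *Egr4* alone of the 10 genes turned, to −0.48. The median log2 ratio of the 10 genes was then 0.56, and it was 1.45 with the median gene ratio set to 1 and 1.26 with neuronal markers set equal. The share of all genes at least 1.5-fold higher in the PVC was 10.0% with no minimum above 0 and 0.876% without rescaling. It was 5.38% with the median gene ratio set to 1, 5.04% without the 100 most abundant genes and 3.43% with neuronal markers set equal. The share higher in the EC was 4.12% at a minimum of 100, 16.5% with no minimum above 0, 88.3% without rescaling and 11.7% with neuronal markers set equal, the scalings of these shares being chosen after seeing the data. Leaving out exon length kept 5 of 10 genes in place in the EC order and 6 in the PVC order. In the 150 bases before the start site 7 of 8 genes held the CRE core and 1, rather than 2, held TATAAA. No paired analysis was possible because the tables hold no values of single mice. For the same reason no replicate could be left out.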
